A study of Mus musculus with 16 samples.

Results

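Complex I, the NADH:ubiquinone oxidoreductase of the respiratory chain, is encoded by 2 genomes, and its nuclear-encoded subunits were followed here in RNA-seq counts of mouse cardiac tissue. Members were taken by symbol: Ndufa, Ndufab, Ndufb, Ndufc, Ndufs or Ndufv followed by a number, with the Ndufaf assembly factors left out and a level of at least 1 CPM (a count scaled to one fixed library total) in 4 or more libraries. The rule found 38 of 36499 entries of the table, which are 37 genes because Ndufs3 stood on 2 entries with the same counts. All 37 were among the 15255 genes tested after the filter on low counts. The symbols of 36 members name complex I subunits, while Ndufa4 is now assigned to cytochrome c oxidase (complex IV) and is given apart from the others.

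The 16 libraries were labelled as 4 genotypes with 4 libraries each: double KO, lacking Clpp and Fgf21; Clpp KO; Fgf21 KO; and wild type. All mice were kept on normal chow. Per the labels' protocols, Clpp KO mice came from floxed Clpp mice crossed to a line expressing Cre throughout the body from the β-actin promoter, followed by intercrossing of the Clpp+/- offspring, and double KO mice from floxed Clpp and Fgf21 alleles with the same kind of Cre. Both knockouts thus affect the whole animal and not the heart alone. How the single Fgf21 KO was bred and the age of the animals are not given in the sources used here. The title of the series asks whether FGF21, a hormone released under mitochondrial stress, shapes the cardiac stress response at different degrees of mitochondrial dysfunction.

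Complex I is an L-shaped assembly of the inner mitochondrial membrane. Its matrix arm carries the flavin and the iron-sulfur clusters that take electrons from NADH to ubiquinone, and its membrane arm pumps protons. The proton-pumping core of the membrane arm is encoded in mitochondrial DNA (mtDNA), whereas the redox core and the accessory subunits are made in the cytosol from nuclear genes and imported, so that an intact complex needs transcripts of both genomes. The heart is rich in mitochondria and depends on the respiratory chain for most of its ATP. CLPP is the peptidase of the matrix protease ClpXP, which takes part in the turnover of matrix proteins, subunits of the matrix arm among them.

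The promoters of the members were searched for 4 short motifs of factors known for nuclear genes of the respiratory chain: NRF1 (GCGCA and GCGC with any base N between them), the ETS family that includes GABPA (CCGGAAG), YY1 (AAGATGGCG) and ERR (AAGGTCA), on both strands. RefSeq windows of 300 bases on GRCm38.p6, with 250 bases before the start of the gene and 50 after it, matched 33 of the 37 members. The YY1 letters stood in the windows of 5 members (15.2%: Ndufa9, Ndufc1, Ndufs4, Ndufs6 and Ndufs7), against 1.64% of the 27025 genes with a window. The NRF1 letters stood in 7 members (21.2%: Ndufa5, Ndufa6, Ndufa8, Ndufa11, Ndufb4, Ndufs5 and Ndufs6), against 5.19% of all. The ETS letters stood in 4 members (12.1%, against 9.93% of all) and the ERR letters in 3 (9.09%, against 5.38%), and 16 members held at least 1 of the 4. A match is a run of letters and not a measured binding site. The start is that of RefSeq, and the Ndufa1 window lies wholly before the start that GENCODE gives (gene at chrX:37187588-37191163, minus strand). The windows printed here are those of the 2 members that passed the test in one comparison (Ndufc1 and Ndufa1), of the member whose levels followed those of the others most closely (Ndufs6), and of one with 2 kinds of motif (Ndufs5). All are on the minus strand of the chromosome and are written 5′ to 3′ along the gene, with matches in capitals. Ndufc1 is chr3:51408906-51409205 and holds YY1 letters from position 23 after the start. Ndufa1 is chrX:37191189-37191488 and holds no match. Ndufs6 is chr13:73328433-73328732 and holds NRF1 letters, read on the other strand, from position -16 and YY1 letters from 34. Ndufs5 is chr4:123718137-123718436 and holds ERR letters, read on the other strand, from -228 and NRF1 letters from -98.
Ndufc1: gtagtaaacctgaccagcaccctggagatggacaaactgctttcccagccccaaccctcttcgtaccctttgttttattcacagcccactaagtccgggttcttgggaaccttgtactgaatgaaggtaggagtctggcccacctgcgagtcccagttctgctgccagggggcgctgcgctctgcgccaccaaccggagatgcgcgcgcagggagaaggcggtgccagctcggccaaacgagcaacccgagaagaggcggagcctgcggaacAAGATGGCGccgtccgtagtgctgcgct
Ndufa1: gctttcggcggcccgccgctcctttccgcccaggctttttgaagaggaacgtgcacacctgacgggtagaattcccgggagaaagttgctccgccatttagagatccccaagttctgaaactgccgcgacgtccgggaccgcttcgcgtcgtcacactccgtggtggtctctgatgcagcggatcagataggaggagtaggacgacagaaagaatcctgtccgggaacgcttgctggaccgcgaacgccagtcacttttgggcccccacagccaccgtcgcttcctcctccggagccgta
Ndufs6: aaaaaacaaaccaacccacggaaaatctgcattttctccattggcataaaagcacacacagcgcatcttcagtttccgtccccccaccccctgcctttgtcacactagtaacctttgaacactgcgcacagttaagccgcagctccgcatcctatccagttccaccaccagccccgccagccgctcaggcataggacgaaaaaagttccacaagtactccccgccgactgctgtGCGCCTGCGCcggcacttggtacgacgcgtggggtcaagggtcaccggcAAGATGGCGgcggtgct
Ndufs5: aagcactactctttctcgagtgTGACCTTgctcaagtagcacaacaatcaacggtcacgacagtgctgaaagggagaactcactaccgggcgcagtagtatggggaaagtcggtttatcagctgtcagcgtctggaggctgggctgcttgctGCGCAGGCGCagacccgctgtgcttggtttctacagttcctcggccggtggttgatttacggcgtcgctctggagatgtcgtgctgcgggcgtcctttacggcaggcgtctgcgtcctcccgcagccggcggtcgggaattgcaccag

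Libraries held 36260545 to 51820727 counts. Genes of mtDNA took a mean of 58.8% of the counts in double KO and 58.0% in Clpp KO, against 36.1% in Fgf21 KO and 33.2% in wild type. Levels in CPM are therefore given scaled by trimmed mean of M-values (TMM) factors, which ran from 0.674 to 1.83. The labels of the Clpp genotypes fitted the counts, with Clpp at 7.25 to 9.40 CPM in double KO, 7.61 to 9.68 CPM in Clpp KO, 28.6 to 46.9 CPM in Fgf21 KO and 28.8 to 43.2 CPM in wild-type libraries. Fgf21 was at 0 counts in each of the 8 double KO and Fgf21 KO libraries, at 6 to 28 counts in Clpp KO and at 1, 0, 5 and 0 counts in wild type. Its counts thus set double KO apart from Clpp KO but cannot tell Fgf21 KO from wild type. Ventricular markers summed to 10730 to 12550 CPM in double KO, 8510 to 12220 in Clpp KO, 9519 to 16140 in Fgf21 KO and 6249 to 11940 in wild type, and these ranges overlapped. The sum of 12 atrial markers was 492 to 2069 CPM in double KO, 494 to 4470 in Clpp KO and 676 to 3918 among the Fgf21 KO libraries, and wild type split into replicates 2 and 4, with 11420 and 7468 CPM, and replicates 1 and 3, with 434 each. Of these, the defining atrial gene Myl7 reached 1728 and 1337 CPM in wild-type replicates 2 and 4, with 1.21 and 1.16 CPM in the other wild-type libraries. Wild-type replicates 2 and 4 also had the highest sums of 6 brown fat markers, 40 and 139 CPM, against 13.5 to 27.2 in the other 14 libraries. In bulk tissue, fewer cells of a type and less RNA per cell cannot be told apart. No label says that the libraries of a genotype came from different animals, so p-values set a difference against a spread that could be technical.

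Members were expressed at levels that differed widely per kilobase of transcript, which could be set for 34 of them. Ndufa4 stood highest, with 750.0 ± 57.7 CPM per kilobase in double KO, 642 ± 83.7 in Clpp KO, 876 ± 122 in Fgf21 KO and 813 ± 131 in wild-type libraries (SD, n = 4 each). Ndufb8, an accessory subunit of the distal membrane arm, was the highest of complex I itself, with 555 ± 35.1 CPM per kilobase in double KO, 458 ± 58.7 in Clpp KO, 625 ± 114 in Fgf21 KO and 519.6 ± 104 in wild-type libraries (SD, n = 4 each). Averaged over the groups, Ndufb8 had 539 CPM per kilobase, Ndufb9 506 and Ndufb10 478, and these neighbours differed by less than the spread between libraries. The lowest were Ndufv3 with 96.9, Ndufs4 with 75.5 and Ndufb4 with 27.4 CPM per kilobase. The value of Ndufb4 is uncertain, because 19.1% of its 31-mers are also in the near copy Ndufb4c, which had 71.4 to 121 CPM and is outside the rule. Of the 37 members, 6 shared over 20% of their 31-mers with other genes, among them Ndufb6 (34.5%, with Smim27) and Ndufa13 (33.2%, with Tssk6), and 19 shared under 5%.

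**Figure D1:**
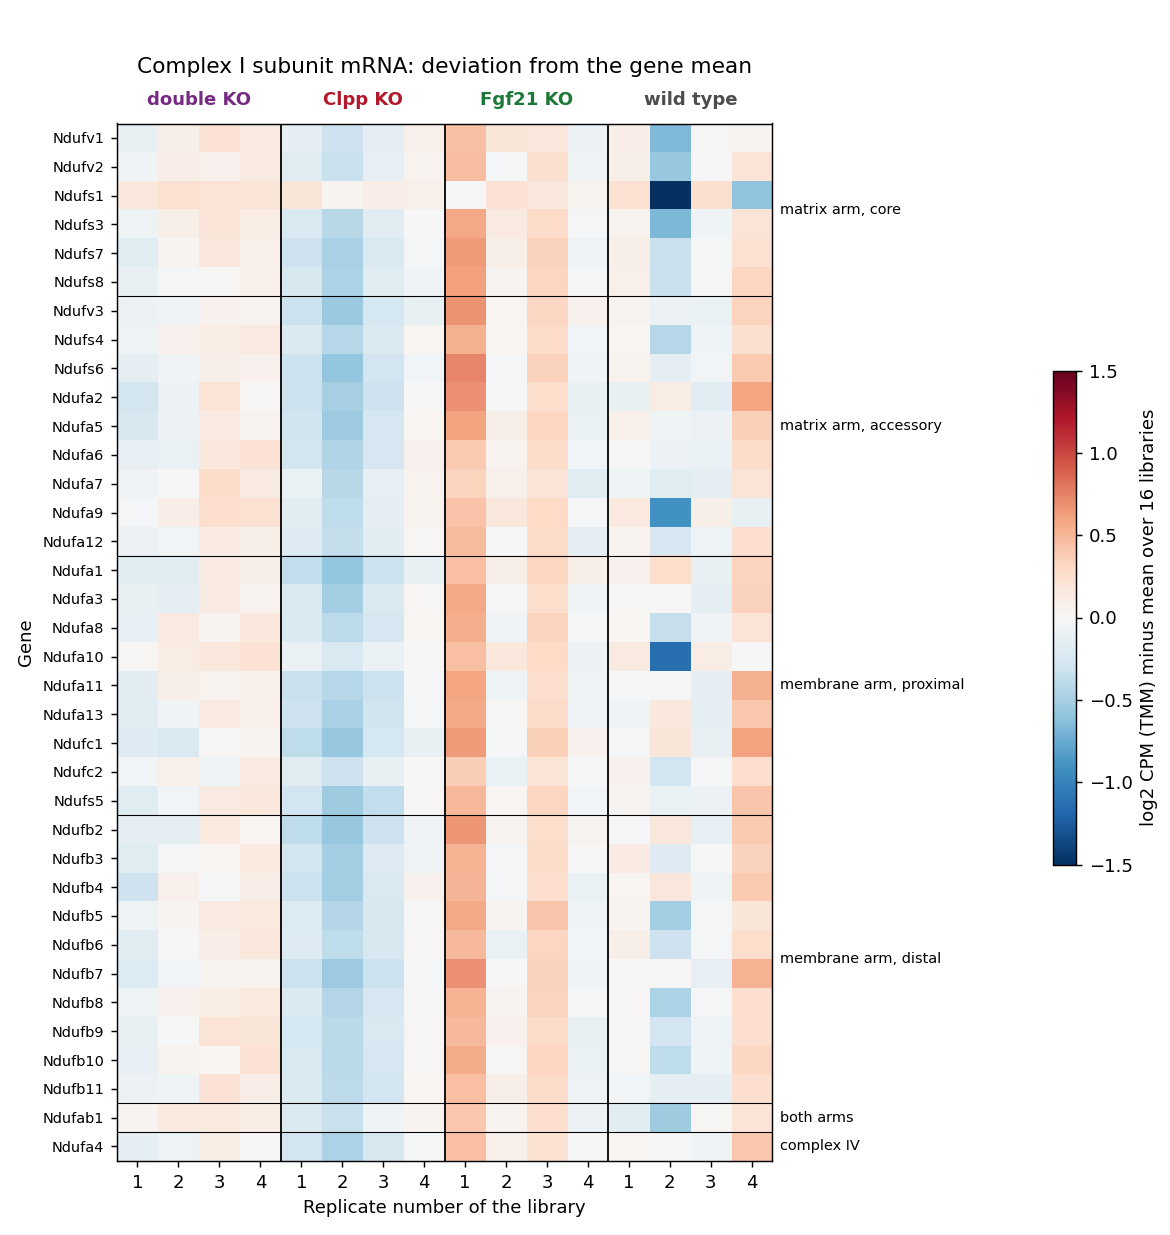
Deviation of each of 36 members (vertical) from its own mean over 16 libraries, in log2 CPM scaled by TMM, with libraries grouped by genotype (horizontal) and members grouped by their place in the complex. Fgf21 KO replicate 1 is the highest column (median deviation 0.52) and Clpp KO replicate 2 the lowest (-0.43), and Ndufs1 departs from the other members in wild-type replicates 2 and 4.

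As a whole, the nuclear-encoded subunits took the lowest share of the nuclear transcripts in the hearts without Clpp. The members' summed counts made up 1.44 to 1.496% of the counts outside mtDNA in double KO and 1.26 to 1.48% in Clpp KO, against 1.60 to 1.95% in Fgf21 KO and 1.53 to 1.76% in wild type. The 8 libraries lacking Clpp all lay below the 8 others on this scale. In CPM scaled by TMM, 0 of 37 single members did so, where 0.249% of all genes did. On that scale the members' median log2 fold change in double KO against wild type was 0.02, with 21 of 37 positive. Of all counts, mtDNA included, the members took 0.587 to 0.653% in double KO and 0.532 to 0.621% in Clpp KO, against 0.977 to 1.38% in Fgf21 KO and 0.951 to 1.25% in wild type. The 7 complex I subunits of mtDNA, by contrast, gave 23.6 to 30.2 counts for each count of a member in double KO and 26.4 to 32.6 in Clpp KO, against 5.16 to 11.5 in Fgf21 KO and 5.42 to 12.1 in wild type. The groups with and without Clpp did not overlap in this ratio. The 3 lowest ratios were those of Fgf21 KO replicate 1 (5.16) and wild-type replicates 2 (5.42) and 4 (5.77). These are sums over the members and have no test of their own.

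**Figure D2:**
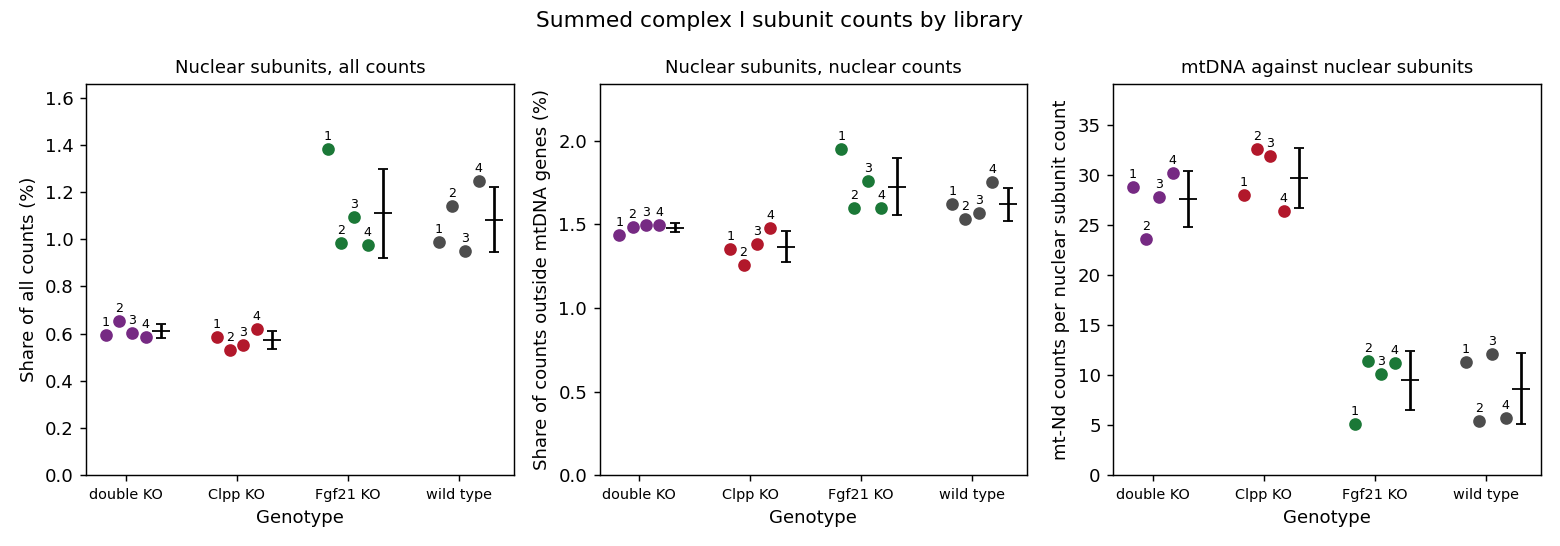
Summed counts of the 37 members as a percent of all counts (left) and of counts outside mtDNA (middle), and counts of the 7 mtDNA-encoded complex I subunits (mt-Nd) per count of a member (right), by genotype, with 1 point per library and the mean and SD of each genotype (n = 4). The 8 libraries lacking Clpp lie below the others in the share outside mtDNA (1.26 to 1.496%) and above them in the ratio (23.6 to 32.6).

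Loss of Clpp was compared in 2 settings that share no libraries, with Fgf21 lacking and with Fgf21 present, and as the average of both. In double KO against Fgf21 KO, 36 of 37 members had negative log2 fold changes, with a median of -0.18 (all genes -0.01) and a range of -0.37 to 0.09. In Clpp KO against wild type, 35 of 37 had negative log2 fold changes, with a median of -0.21 (all genes -0.04) and a range of -0.51 to 0.35. Both changes were negative in 35 of 37 members (94.6%), against 40.2% of all genes tested. The members moved together between libraries, so their signs are not independent of each other. Under library size alone, which includes the mtDNA counts, the medians were -0.88 in double KO against Fgf21 KO (all genes -0.70) and -0.96 in Clpp KO against wild type (all genes -0.79), with all 37 members negative in both. Single libraries moved these medians: without Fgf21 KO replicate 1 it was -0.06 in double KO against Fgf21 KO, and without wild-type replicate 4 it was -0.12 in Clpp KO against wild type. The standard error (SE) of a single member had a median of 0.16, about as large as these medians.

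Markers of other cell types differed in the same comparisons, on the same scale. In double KO against Fgf21 KO the median was -0.14 for 7 endothelial markers (5 negative), -0.10 for 8 fibroblast markers (6 negative), 1.12 for 7 red blood cell markers (all positive), 0.31 for 8 macrophage markers (all positive) and -0.04 for 8 ventricular markers, and 0 of these passed with edgeR. In Clpp KO against wild type it was -0.20 for the endothelial markers (6 negative), -0.22 for the fibroblast markers (all negative), -1.66 for the red blood cell markers (all negative, 5 with an unadjusted p under 0.05), 0.16 for the macrophage markers (7 positive) and 0.06 for the ventricular markers. Of these 1 passed, Pecam1 of the endothelial list (-0.56 ± 0.12, adjusted p = 0.0283, edgeR). The endothelial markers summed to 443 to 571 CPM in double KO, 408 to 504 in Clpp KO, 506 to 605 in Fgf21 KO and 436 to 584 in wild type. Red blood cell markers summed to 637 to 10960 CPM in double KO, 907 to 1821 in Clpp KO, 1279 to 3052 in Fgf21 KO and 2494 to 7306 in wild type. The 12 atrial markers were all negative for Clpp loss, with a median of -1.21 where Fgf21 was lacking and -0.993 where it was present. Their median SE was large, 1.36 and 1.33 in the same order. Of 5 brown fat markers tested, 4 were negative with Fgf21 lacking (median -2.05) and 5 with Fgf21 present (median -3.315). In both settings 0 atrial and 0 brown fat markers passed with edgeR. The part of these cells in the members' changes was not tested.

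Few single members passed the test. At an adjusted p of 0.05 (Benjamini-Hochberg over all 15255 genes, edgeR's quasi-likelihood test), 0 of 37 members passed in double KO against Fgf21 KO, where 0.892% of all genes did, and 1 (2.70%) had an unadjusted p under 0.05, as had 7.09% of all genes. In the same comparison 0 members passed with DESeq2 (1.37% of all genes) and 0 with limma voom (2.43% of all genes). An unadjusted p under 0.05 was given to 3 members by DESeq2 (1147 of 15255 genes) and to 21 by limma voom (2891 genes). In Clpp KO against wild type, 0 of 37 passed with edgeR, where 1.63% of all genes did, and 13 (35.1%) had an unadjusted p under 0.05, as had 21.3% of all genes. There 1 member (2.70%) was lower with DESeq2, which called 5.51% of all genes, and 12 (32.4%) with limma voom, which called 18.5%. For Clpp loss averaged over both Fgf21 genotypes, 2 of 37 members fell (5.41%), a share near the 5.11% of all genes that passed. These were Ndufa1 and Ndufc1, and 17 members (45.9%) had an unadjusted p under 0.05, as had 25.4% of all genes. In the averaged comparison DESeq2 called 6 members (16.2%) lower and 10% of all genes in either direction, and limma voom 30 members (81.1%) lower and 21.5% of all genes, so the number of members called rested on the tool.

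**Figure D3:**
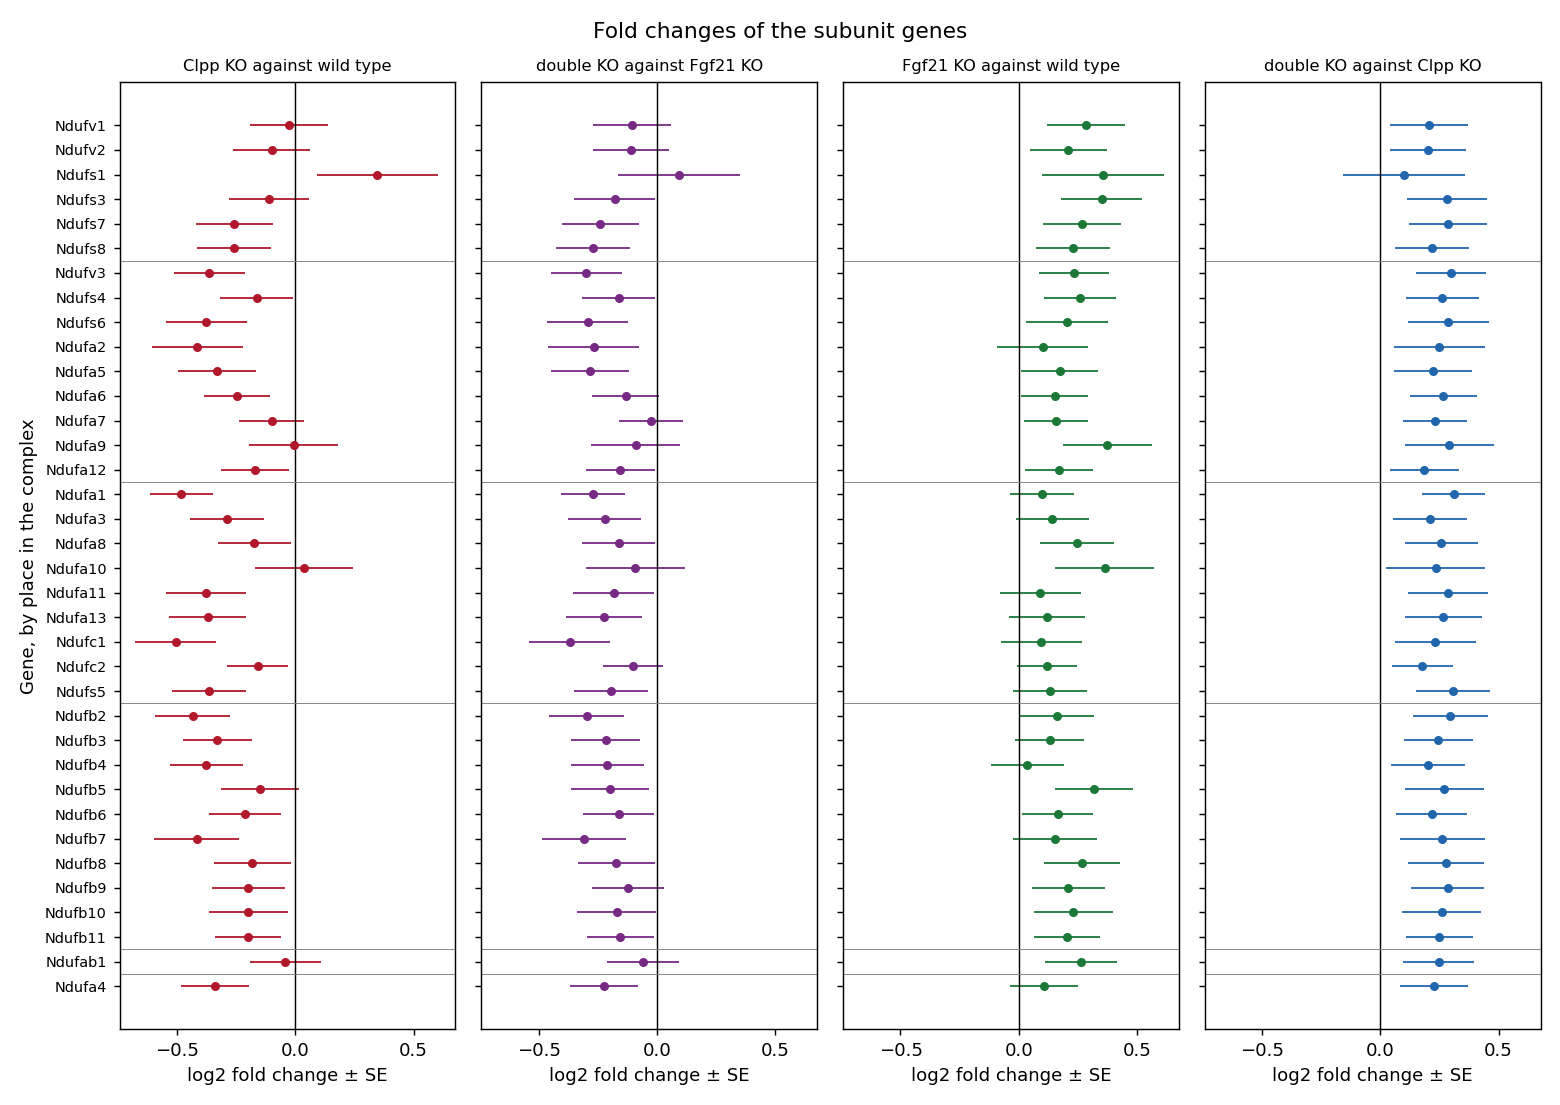
Log2 fold change of each of 36 members (vertical, grouped by place in the complex) with its SE, in the comparisons without shared libraries for loss of Clpp and for loss of Fgf21 (horizontal, log2 scale). For loss of Clpp, 36 of all 37 members were negative in double KO against Fgf21 KO, as were 35 in Clpp KO against wild type. All 37 were positive for loss of Fgf21, where scaling by library size alone leaves 36 positive in double KO against Clpp KO and 18 in Fgf21 KO against wild type.

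Ndufa1, a small subunit of the membrane arm next to the ubiquinone-binding end of the complex (ENSMUSG00000016427, chrX:37187588-37191163, minus strand, GRCm38), had 80.8, 80.2, 98.7 and 96.4 CPM in double KO, 70.1, 60.8, 72.6 and 83.8 in Clpp KO, 124, 95.9, 113 and 96.5 in Fgf21 KO and 94.8, 109, 84.2 and 114 in wild type. All 4 Clpp KO libraries lay below all 4 wild-type libraries, while double KO and Fgf21 KO overlapped. With Fgf21 lacking, 0 of 37 members had every double KO library below every Fgf21 KO library, where 1.92% of all genes did. Ndufa1 fell by 0.38 on the log2 scale in the averaged comparison (SE 0.09, adjusted p = 0.032, edgeR). The change was -0.48 ± 0.13 in Clpp KO against wild type (adjusted p = 0.0785, edgeR) and so missed the threshold. It passed with DESeq2 (adjusted p = 0.0152), limma voom (0.00977), library size alone (6.74e-05), the atrial covariate (0.0449) and without wild-type replicate 3 (0.0356; edgeR for the last 3), with a change of -1.27 under library size alone and -0.55 to -0.34 in the others. Ndufv3, an accessory subunit near the flavin site, was the only other member whose Clpp KO libraries (121, 102, 126 and 139 CPM) all lay below those of wild type (156, 142, 140.1 and 189.9 CPM). These 2 of 37 members (5.41%) compare with 5.93% of all genes whose Clpp KO libraries were all lower.

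Ndufc1, an accessory subunit of the same part of the membrane arm (ENSMUSG00000037152, chr3:51404677-51408988, minus strand, GRCm38), had 92.1, 89.8, 106 and 108 CPM in double KO, 80.9, 71.0, 87.7 and 97.7 in Clpp KO, 164, 103, 135 and 110.0 in Fgf21 KO and 103, 119, 97.3 and 159.7 in wild type. Double KO overlapped Fgf21 KO, and Clpp KO overlapped wild type, with Fgf21 KO replicate 1 and wild-type replicate 4 the highest. Ndufc1 fell by 0.44 on the log2 scale in the averaged comparison (SE 0.12, adjusted p = 0.0483, edgeR), and its change in Clpp KO against wild type was the most negative of all members there, -0.51 ± 0.17 (adjusted p = 0.131, edgeR). Both calls lay near the threshold: leaving out 1 library at a time, the call of Ndufa1 was lost in 8 of 16 fits (adjusted p 0.0605 to 0.0739, log2 change -0.38 to -0.34 in those) and that of Ndufc1 in 13 of 16 (adjusted p 0.0525 to 0.105, log2 change -0.48 to -0.35; edgeR). The 8 for Ndufa1 were wild-type replicate 4, Fgf21 KO replicates 1 and 3, Clpp KO replicates 1, 2 and 3, and double KO replicates 1 and 2. For Ndufc1 the call was kept only without wild-type replicate 1 or 3 or Fgf21 KO replicate 2. Without the 2 wild-type libraries rich in atrial transcripts, the changes were -0.30 for Ndufa1 (adjusted p = 0.0806) and -0.32 for Ndufc1 (adjusted p = 0.123), and 0 members passed.

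**Figure D4:**
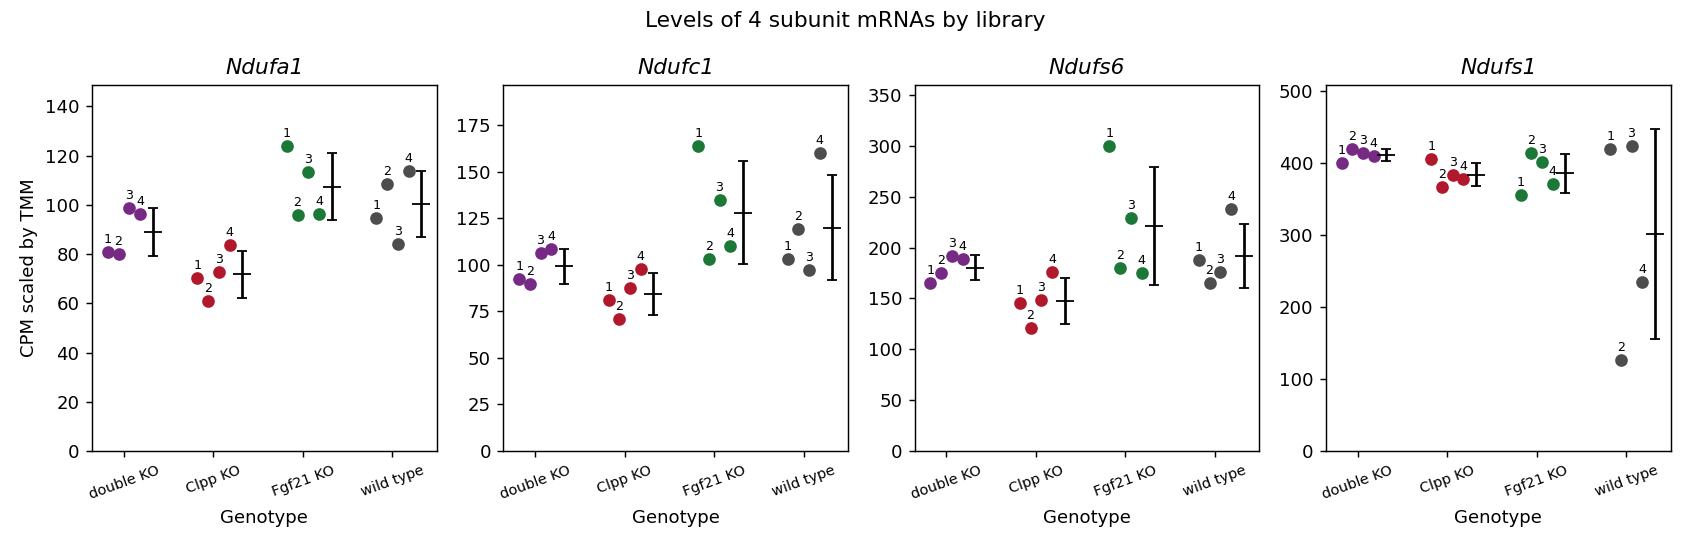
Levels of Ndufa1, Ndufc1, Ndufs6 and Ndufs1 in CPM scaled by TMM, with 1 point per library and the mean and SD of each genotype (n = 4). Ndufa1 in Clpp KO (60.8 to 83.8) lies below wild type (84.2 to 114), and Ndufs1 has 2 low wild-type libraries (127 and 235).

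Members are given next by their place in the complex. In Clpp KO against wild type, the medians were -0.10 for the 7 core subunits of the matrix arm, -0.25 for the 9 accessory subunits of that arm, -0.37 for the 9 subunits of the proximal membrane arm and -0.21 for the 10 Ndufb subunits of the distal membrane arm. The medians of double KO against Fgf21 KO lay closer together, with -0.14 for the core, -0.16 for the accessory subunits of the matrix arm, and -0.19 for both the proximal and the distal membrane arm. Ndufab1, the mitochondrial acyl carrier protein that sits in both arms, had -0.06 ± 0.15 for double KO against Fgf21 KO and -0.04 in Clpp KO against wild type. Ndufa4 had a change of -0.34 ± 0.14 in Clpp KO against wild type (adjusted p = 0.195, edgeR). The differences between these groups of members were not tested.

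Among core subunits, Ndufs1, which carries iron-sulfur clusters of the matrix arm (ENSMUSG00000025968, chr1:63143596-63176833, minus strand, GRCm38), went against the other members. It had 400.0, 419.9, 414 and 409 CPM in double KO, 405, 367, 384 and 378 in Clpp KO, 355, 414, 401 and 371 in Fgf21 KO and 420.2, 127, 424 and 235 in wild type. Wild-type replicates 2 and 4, the libraries rich in atrial transcripts, held the low values, and the other 14 libraries lay between 355 and 424. The change in Clpp KO against wild type was 0.35 ± 0.26 (adjusted p = 0.434, edgeR), and it was -0.13 without those 2 libraries. Ndufa10, a subunit of the membrane arm, showed a like pattern, with 172 CPM in wild-type replicate 2 against 375 to 412 in the other wild-type libraries. Its change in Clpp KO against wild type was 0.04 ± 0.21, and -0.22 without wild-type replicates 2 and 4. Without these 2 libraries all 37 members had negative changes in Clpp KO against wild type, with a median of -0.21. With the mean level of the atrial markers as a covariate, 1 member passed in Clpp KO against wild type, Ndufa1 (-0.48, adjusted p = 0.0449, edgeR).

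Accessory subunits of the matrix arm had the more typical pattern. Ndufs6, which holds a zinc ion in the matrix arm, had 165, 175, 192 and 189 CPM in double KO, 145, 121, 148 and 176 in Clpp KO, 299.9, 179, 229 and 175 in Fgf21 KO and 188, 165, 176 and 237 in wild type. Double KO and Fgf21 KO overlapped, as did Clpp KO and wild type, with means of 180.3 CPM in double KO, 148 in Clpp KO, 221 in Fgf21 KO and 192 in wild type. Ndufs4, whose loss in mice and humans gives a Leigh-like disease, had 119.7, 132, 137 and 139 CPM in double KO, 109, 93.8, 109 and 129 in Clpp KO, 184, 129.5, 154 and 123 in Fgf21 KO and 129, 93.7, 121 and 149.6 in wild type. These values overlapped in every pair of groups for Clpp loss. Ndufa9, at the junction of both arms, had the smallest change in Clpp KO against wild type, -0.01 ± 0.19 (adjusted p = 0.986, edgeR), with a sign that turned under other settings.

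Of the distal membrane arm, Ndufb2 had 94.4, 95.0, 116 and 106 CPM in double KO, 80.0, 70.4, 84.1 and 101 in Clpp KO, 166, 108, 125 and 107 in Fgf21 KO and 103, 118, 95.8 and 137 in wild type. Clpp KO lay below wild type but for its replicate 4, and the change was -0.43 ± 0.16 (adjusted p = 0.151, edgeR). Ndufb7, a cysteine-rich subunit facing the intermembrane space, had the second most negative change in double KO against Fgf21 KO, -0.31 ± 0.18 (adjusted p = 0.769, edgeR), with 158 to 188 CPM in double KO against 173 to 292 in Fgf21 KO. The highest value of that range was Fgf21 KO replicate 1. Without that library and wild-type replicates 2 and 4, the members' median in double KO against Fgf21 KO was -0.07 in place of -0.18, with 34 of 37 negative. The members nearest 0 or above it in this comparison were Ndufs1 (0.09 ± 0.26), Ndufa7 of the matrix arm (-0.03 ± 0.14) and Ndufab1, and the most negative beside Ndufb7 were Ndufc1 (-0.37 ± 0.17) and Ndufv3 (-0.30 ± 0.15), with adjusted p from 0.698 to 0.980 over all members (edgeR).

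Loss of Fgf21 was compared in 2 settings that share no libraries either, with Clpp lacking and with Clpp present. In double KO against Clpp KO all 37 members had positive log2 fold changes, with a median of 0.25 (all genes 0.01) and a range of 0.10 to 0.31, and library size alone left 36 positive, all but Ndufs1, with a median of 0.10 (all genes -0.14). In Fgf21 KO against wild type all 37 were positive too, with a median of 0.20 (all genes -0.01) and a range of 0.04 to 0.37, but scaling by library size alone left 18 positive and 19 negative, with a median of -0.01 where all genes had -0.23. With TMM scaling, both changes were positive in 37 of 37 members (100%), against 32.9% of all genes. DESeq2, which uses scaling factors of its own, also had 37 positive in each comparison. Limma voom had 37 in double KO against Clpp KO and 36 in Fgf21 KO against wild type. Among the scalings tried, library size alone was the one that changed these counts. With edgeR 0 of 37 members passed in either comparison, where 0.059% of all genes passed in double KO against Clpp KO and 0.0459% in Fgf21 KO against wild type. With edgeR, 1 member (Ndufa1) had an unadjusted p under 0.05 in double KO against Clpp KO (3.55% of all genes). In Fgf21 KO against wild type 0 did (9.17% of all genes). These counts rested on the fit. With only the groups compared in edgeR they were 23 (1486 of 14135 genes) and 0 (651 of 14915 genes), in the same order. DESeq2 gave 1 and 4 (544 and 1586 of 15255 genes), and limma voom 25 and 27 (1888 and 3255 genes). DESeq2 and limma voom each called 0 members in both, where they called 0.229% and 0.269% of all genes in double KO against Clpp KO, and 0.223% and 0.728% in Fgf21 KO against wild type. Without Fgf21 KO replicate 1 the median in Fgf21 KO against wild type was 0.08. The pooled spread of the members' median between libraries of a group was 0.20 (SD, log2). By group, the SD of the members' median deviation was 0.11 in double KO, 0.18 in Clpp KO, 0.26 in Fgf21 KO and 0.22 in wild type. These SDs describe single libraries, and a difference between means of 4 libraries has a smaller error. All 12 atrial markers were negative in both comparisons, with medians of -1.45 in double KO against Clpp KO and -1.29 in Fgf21 KO against wild type. Fibroblast markers were negative in 8 of 8 for both comparisons (medians -0.45 in double KO against Clpp KO and -0.68 in Fgf21 KO against wild type). So were the 8 macrophage markers (-0.09 and -0.27), while the red blood cell markers had medians of 1.5 and -1.22. Their part in the members' changes was not tested.

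The largest changes in double KO against Clpp KO were those of Ndufa1 (0.31 ± 0.13), Ndufs5 (0.31 ± 0.16) and Ndufv3 (0.30 ± 0.15), each with adjusted p = 0.994 (edgeR). The smallest were those of Ndufs1 (0.10 ± 0.26), Ndufc2 (0.18 ± 0.13) and Ndufa12 (0.19 ± 0.14). Ndufv3 had 142, 144, 157 and 156 CPM in double KO, against 121, 102, 126 and 139 in Clpp KO, and these groups did not overlap. Ndufa10 was the other member without overlap, with 382 to 438 CPM in double KO against 322 to 374 in Clpp KO. These are 2 of 37 members (5.41%), against 3.11% of all genes whose double KO libraries were all higher. Ndufs5, an accessory subunit on the intermembrane space side, had 85.1, 93.9, 106 and 108 CPM in double KO and 79.0, 66.7, 74.7 and 97.3 in Clpp KO, with replicate 4 of Clpp KO inside the double KO range. In Fgf21 KO against wild type the largest changes were those of Ndufa9 (0.37 ± 0.19, adjusted p = 0.539), Ndufa10 (0.36 ± 0.21, 0.568) and Ndufs1 (0.35 ± 0.26, 0.608; edgeR), and all 3 had their lowest wild-type value in replicate 2. The smallest were those of Ndufb4 (0.04 ± 0.15), Ndufa11 (0.09 ± 0.17) and Ndufc1 (0.10 ± 0.17), and library size alone made each of these negative. No member was without overlap there, where 1.15% of all genes were higher in every Fgf21 KO library.

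Double KO hearts were also set directly against wild-type hearts. The median log2 fold change of the members in double KO against wild type was 0.02 (all genes -0.01), with 21 of 37 positive and a range of -0.27 to 0.45, while library size alone made all 37 negative with a median of -0.88 (all genes -0.92). With edgeR 0 of 37 passed, where 1.53% of all genes did, and 0 had an unadjusted p under 0.05 (22.8% of all genes). DESeq2 and limma voom called 0 members, and 6.33% and 6.32% of all genes. Ndufs1 had the most positive change (0.45 ± 0.26, adjusted p = 0.302, edgeR) and Ndufc1 the most negative (-0.27 ± 0.17, adjusted p = 0.338). The first of these was -0.04 without wild-type replicates 2 and 4. The next positive changes were those of Ndufa9 (0.28 ± 0.19) and Ndufa10 (0.27 ± 0.21), and the next negative ones those of Ndufb4 (-0.17 ± 0.16) and Ndufa1 (-0.17 ± 0.13), none past the threshold. Whether Clpp loss had another effect with Fgf21 lacking than with Fgf21 present was tested as an interaction. The interaction had a median of 0.05 over the members (27 of 37 positive) and called 0 of 37 members and 0.0% of all genes, with 0 members at an unadjusted p under 0.05 (1.96% of all genes) and 0 called by DESeq2 (0.0197%) or limma voom (0.00656%). Its most negative values were -0.26 ± 0.36 for Ndufs1 and -0.13 ± 0.30 for Ndufa10, and its most positive 0.21 ± 0.19 for Ndufa1, 0.19 ± 0.24 for Ndufa11 and 0.17 ± 0.22 for Ndufs5, all with adjusted p = 1 (edgeR).

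The members varied together from library to library. Over the 16 libraries the 666 pairs of members had a median Pearson r of 0.881 (range -0.371 to 0.997) in log2 CPM, and 0.861 after the group means were taken out. These values share the scaling of each library, and no p is given for them. Ndufs6 had the highest median r with the other members (0.933), followed by Ndufa5 (0.931), a matrix-arm subunit, and Ndufb3 and Ndufs5 (0.927 each). Ndufs1 had the lowest, 0.134, and Ndufa10 (0.632) and Ndufa9 (0.705) were also low. The median SD of a member over the libraries was 0.263, close to the 0.285 of all genes (log2).

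Transcript length was set beside the changes. For the 34 members with a clear transcript length, Spearman's rho between length and log2 fold change was 0.62 in Clpp KO against wild type (0.19 over 15054 genes) and 0.68 in Fgf21 KO against wild type (-0.05), against 0.35 (0.15) in double KO against Fgf21 KO. It was -0.25 in double KO against Clpp KO, as over all genes (-0.25). In double KO against wild type it was 0.58 (0.06 over all genes), in the averaged comparison 0.54 (0.19) and in the interaction -0.74 (-0.15). The 2 comparisons with the highest rho share the wild-type libraries, which also enter these last comparisons. Within wild type, rho between length and the deviation of the members from their mean over all libraries was 0.54 in replicate 1 and 0.60 in replicate 3, but -0.66 in replicate 2 and -0.60 in replicate 4. Over all genes it was 0.08 in replicate 1, 0.19 in replicate 3, -0.02 in replicate 2 and -0.25 in replicate 4. Replicates 2 and 4 are also those rich in atrial transcripts, and the part of tissue makeup in this relation was not tested. Genes are not independent replicates, so these values are descriptions with no p.

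**Figure D5:**
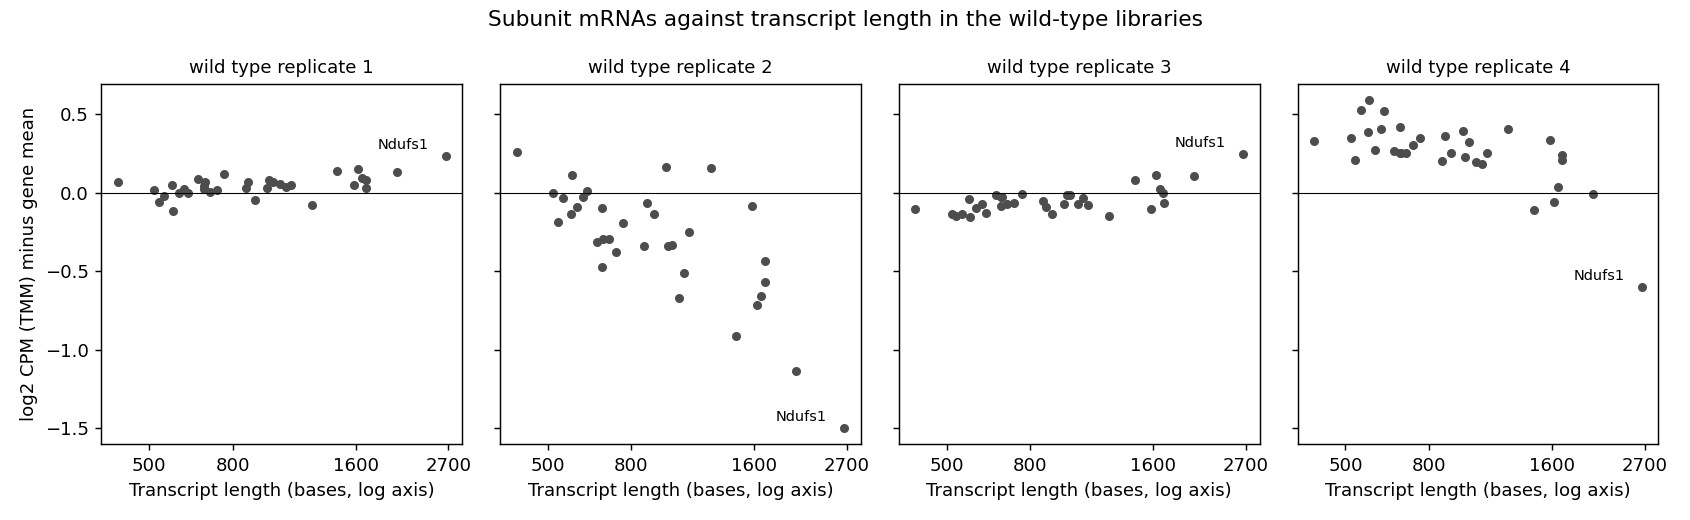
Deviation of 34 members from their own mean over all 16 libraries (vertical, log2 CPM scaled by TMM) against transcript length (horizontal, log scale, bases) in wild-type replicates 1 to 4. The relation has a positive rho in replicates 1 and 3 (0.54 and 0.60) and a negative one in replicates 2 and 4 (-0.66 and -0.60).

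Other parts of the machinery were set beside the members. Of the 7 complex I subunits encoded in mtDNA, 5 rose in Clpp KO against wild type, 5 when double KO was set against Fgf21 KO, and 6 in the averaged comparison (DESeq2 7, limma voom 6). For loss of Fgf21, 1 of the 7 rose in double KO against Clpp KO (adjusted p = 0.00529, edgeR), where 0.059% of all genes passed. The median of the 7 was 0.10 there (5 positive). In Fgf21 KO against wild type it was 0.28, with all 7 positive and 0 past the threshold (smallest adjusted p = 0.086, edgeR). mt-Nd1, the membrane subunit at the ubiquinone site, rose by 1.43 ± 0.23 for double KO against Fgf21 KO (adjusted p = 0.00338, edgeR) and by 1.71 ± 0.24 in Clpp KO against wild type (adjusted p = 0.00098, edgeR), on the log2 scale. mt-Nd3 rose by 1.77 ± 0.20 in double KO against Fgf21 KO (adjusted p = 0.000156, edgeR) and by 1.39 ± 0.20 in Clpp KO against wild type (adjusted p = 0.00128, edgeR). Without TMM factors the direction was the same: the 7 genes took 15.4 to 17.7% of all counts in double KO and 16.4 to 17.6% in Clpp KO, against 7.13 to 11.3% in Fgf21 KO and 6.19 to 11.5% in wild type. In the averaged comparison the median of the mtDNA-encoded subunits was 1.57, against -0.19 for the nuclear-encoded ones. Of 17 assembly factors tested, which build the complex without being part of it, 0 passed with edgeR in any comparison, and 4 had an unadjusted p under 0.05 in the averaged one, where DESeq2 called 0 and limma voom 8 lower. Their median in the averaged comparison was -0.07, with 12 negative. The smallest adjusted p there was that of Ndufaf8 (-0.33 ± 0.11, adjusted p = 0.0854, edgeR), followed by Ndufaf2 (-0.34 ± 0.12, adjusted p = 0.0962).

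Nuclear-encoded subunits of complexes III, IV and V had negative medians too. In the averaged comparison 0 of 9 complex III subunits passed with edgeR (4 had an unadjusted p under 0.05, and 2 were lower with DESeq2 and 7 with limma voom) and their median was -0.12. The smallest adjusted p was that of Uqcr11 (-0.42 ± 0.12, adjusted p = 0.0555, edgeR). Of 12 complex IV subunits 1 fell, Cox7a1, the muscle form of a small subunit (-0.56 ± 0.11, adjusted p = 0.00991, edgeR), with a median of -0.16 over the list, and 3 were lower with DESeq2 and 5 with limma voom. Of 15 complex V subunits 1 fell, Atp5e, the epsilon subunit of the synthase (-0.50 ± 0.14, adjusted p = 0.0429, edgeR), with a median of -0.19, and 2 were lower with DESeq2 and 8 with limma voom. For complex II, 0 of 4 subunits passed with edgeR, 0 had an unadjusted p under 0.05, and 0 passed with DESeq2 and 1 with limma voom. The complex II median was 0.04, with 3 of 4 positive. Of 12 regulators of respiratory chain genes, 0 passed with edgeR in the averaged comparison (4 had an unadjusted p under 0.05; 1 was higher with DESeq2, and 4 higher and 1 lower with limma voom). Gabpa, whose product binds ETS motifs, had 0.33 ± 0.10 (adjusted p = 0.0768, edgeR) and Yy1 had 0.22 ± 0.08 (adjusted p = 0.112, edgeR), both positive where the members' median was negative. Of all genes, 5.11% passed with edgeR in the averaged comparison, 10% with DESeq2 and 21.5% with limma voom, and 25.4% had an unadjusted p under 0.05 (edgeR). No difference between these lists and the members was tested.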

How the data were processed

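Total RNA of mouse cardiac tissue was made into libraries with a stranded TruSeq mRNA kit, per the labels' protocols. The authors deposited whole-number counts per gene for 16 libraries. Per the submitters' processing notes, fastp 0.21.0, kallisto 0.46.1, edgeR 3.32.1, DESeq2 1.30.1, R 4.0.3 and GRCm38.p6 were used. kallisto gives estimates that need not be whole. The sources used here do not say how they became whole numbers or whether counting used strand, so reads of overlapping, antisense or near-identical genes may be shared. Libraries were grouped by the genotype in the labels.

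From the deposited counts, genes with enough counts (edgeR's filter, minimum 10 in a library and 15 in all) were kept, and 15255 were scaled by TMM and tested with edgeR 4.0.16 (R 4.3.3; quasi-likelihood, robust, 16 libraries in 1 fit, 12 residual degrees of freedom) for 7 comparisons. p-values were adjusted over all genes by the Benjamini-Hochberg method, with a threshold of 0.05. The SE is that of the log2 fold change, and log2 CPM used a prior count of 2. The fitting script was tested on simulated data. Alternatives were DESeq2 1.42.0, limma 3.58.1 (voom with quality weights), other scalings, no filter, a replicate block, an atrial covariate, and libraries left out or summed. The exclusion of 3 libraries by their ratio of mtDNA-encoded to nuclear-encoded counts, and the exclusion of 260 entries that repeat another entry's symbol and counts, were chosen after seeing the data. Transcript lengths and coordinates came from GENCODE M21 and promoters from RefSeq, both on GRCm38. Depth, at 36260545 counts or more per library, put the precision of the members in the spread between libraries and not in counting error.

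The members and lists were chosen with earlier results of these data known. Named in each comparison are the members called, otherwise those with the 3 most positive and 3 most negative changes; for other lists, up to 4 called genes with the smallest p, or the 2 with the smallest p. Members were further named by level, as examples of their place in the complex. The values of 1 member are not reported here by themselves.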

Additional observations from a re-analysis of the deposited data

Results flagged for a closer look

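Within each genotype, a library was singled out where its gap to the nearest other library made up more of the group's range than Dixon's criterion allows. Of 72 groups of 4 values examined (levels of the members named in the comparisons or as not overlapping, and the members' summed shares and ratio), 3 stood out, and chance gives about 1 in 20. The members' share of counts outside mtDNA in double KO replicate 1 was 1.44%, below the 1.487 to 1.496% of the other double KO libraries. Ndufa10 in wild-type replicate 2 had 172 CPM, below the 375 to 412 CPM of the other wild-type libraries. Ndufa11 in wild-type replicate 4 had 245 CPM, above the 154 to 167 CPM of the others. The last pair are the 2 libraries with the highest atrial and brown fat marker sums, and the part of those cells in the values was not tested.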

How the results depend on the processing

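Over 13 alternatives and 16 fits without 1 library, the members' medians kept their sign for Clpp KO against wild type, double KO against Fgf21 KO, the average of both and double KO against Clpp KO, and the counts of members called were what moved most. For Clpp loss averaged over both Fgf21 genotypes, where edgeR called 2 members, the count was 6 with DESeq2, 30 with limma voom, 37 with library size alone (87.3% of all genes), 1 with no filter on low counts, 1 with the atrial covariate, 0 without wild-type replicates 2 and 4, 0 without these and Fgf21 KO replicate 1, and 0 to 4 without 1 library. With the replicate block 0 members passed (Ndufa1 -0.38, adjusted p = 0.0534; Ndufc1 -0.44, adjusted p = 0.0653; edgeR). Samples sharing a number are not paired by the labels, same-number pairs had correlations of -0.23 to 0.36 in their deviations, and 3 of 16 libraries were closest to a library of their own number. Ndufc1 also lost its call with no filter (-0.44, adjusted p = 0.0560) and with the atrial covariate (-0.44, adjusted p = 0.0655), and without wild-type replicates 2 and 4 and Fgf21 KO replicate 1 (-0.24, adjusted p = 0.169; edgeR), where Ndufa1 had -0.26 (adjusted p = 0.125).

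In Clpp KO against wild type, where edgeR called 0 members, the count was 1 with DESeq2, 12 with limma voom, 36 with library size alone (78.2% of all genes), 1 with the atrial covariate and 0 to 1 without 1 library (1 without wild-type replicate 3, Ndufa1). With library size alone 37 members passed in double KO against Fgf21 KO, as did 71.2% of all genes. For double KO against wild type 36 did, and 86.0% of all genes. The members' median with library size alone was -0.96 for Clpp KO against wild type, -0.88 for double KO against Fgf21 KO, -0.91 for the averaged comparison, -0.0085 for Fgf21 KO against wild type and -0.88 for double KO against wild type. Outside the averaged comparison, no other count of members called moved. Within it, the count also changed when wild-type replicates 1 and 3 were summed, as given further below. The medians near 0, of double KO against wild type and of the interaction, ran from -0.07 to 0.11 and from -0.05 to 0.16 without 1 library.

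Some single members changed sign. In Clpp KO against wild type Ndufa9 was positive with DESeq2 and RLE factors (0.0015 each), TMM without mtDNA (0.0041), only the groups compared (0.0014), the replicate block (0.019), the atrial covariate (0.046) and wild-type replicates 1 and 3 summed (0.093), and ran from -0.19 to 0.10 without 1 library. There Ndufa10 had -0.21 with limma voom, -0.65 with library size alone, and -0.22 without wild-type replicates 2 and 4, with or without Fgf21 KO replicate 1 (-0.18 to 0.14 without 1 library), and Ndufs1 had -0.091, -0.31, -0.13 and -0.13 in the same 4 settings. In double KO against Fgf21 KO, without wild-type replicates 2 and 4 and Fgf21 KO replicate 1, Ndufab1 had 0.018 and Ndufa7 0.043 (-0.14 to 0.029 and -0.11 to 0.054 without 1 library), and Ndufs1 had -0.60 with library size alone and -0.19 with the atrial covariate. In double KO against Clpp KO Ndufs1 had -0.052 with library size alone and -0.18 with the atrial covariate.

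In Fgf21 KO against wild type, library size alone gave -0.19 for Ndufb4, -0.12 for Ndufa11 and -0.13 for Ndufc1 (-0.091 to 0.13, -0.062 to 0.26 and -0.043 to 0.27 without 1 library), Ndufb4 had -0.0086 with wild-type replicates 1 and 3 summed, and Ndufs1 had -0.071 with limma voom, -0.12 without wild-type replicates 2 and 4 and -0.088 without these and Fgf21 KO replicate 1. In double KO against wild type, limma voom and library size alone gave -0.0001 and -0.57 for Ndufa10, -0.0083 and -0.57 for Ndufa9, and -0.0008 and -0.36 for Ndufs1, and Ndufs1 had -0.043 in both fits without wild-type replicates 2 and 4. In the interaction, limma voom, the fit without wild-type replicates 2 and 4, and the fit also without Fgf21 KO replicate 1 gave 0.16, 0.21 and 0.18 for Ndufs1, and 0.063, 0.11 and 0.21 for Ndufa10 (-0.24 to 0.065 without 1 library). There Ndufa11 had -0.015 without wild-type replicates 2 and 4 and Ndufa1 -0.030 with limma voom. The cause was not tested for any of these.

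Of all pairs within a genotype, wild-type replicates 1 and 3 lay closest together, with a mean chi-square per gene of 5.68 (median 0.857), against means of 23.3 to 408 (medians 1.62 to 38.3) for the other 23 pairs and a median of 0.455 under counting noise. They were kept as 2 libraries, which does not show that they came from 2 animals, and summing them gave 3 members called in the averaged comparison in place of 2 and 0 in the others. Changes of the size seen in the members, near their SE, are at the limit of 4 libraries a group. For the averaged comparison and the interaction, the fit on only the groups compared is the fit on all groups and gave no further value.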
